A study of Mus musculus with 4 samples.

Results

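The genes for 10 proteins of prostaglandin and leukotriene metabolism were followed in bone marrow (BM) macrophages that had or had not engulfed apoptotic cancer cells. They were chosen by gene symbol, as Ptgs1, Ptgs2, Ptges, Hpgd, Hpgds, Alox5, Alox5ap, Lta4h, Ltc4s and Tbxas1, and are 10 of the 31053 gene rows of the count matrices. BM cells of C57BL/6J mice had been grown in macrophage colony stimulating factor. The methods describe 16 to 18 h of co-culture with apoptotic cells of RM1, a mouse prostate cancer line. The RM1 cells had been killed by ultraviolet light and labeled with the fluorescent dye CFSE. Efferocytic BM macrophages were sorted as F4/80+CFSE+ cells, where F4/80, a protein on the surface of macrophages, marks the cell type and CFSE marks the engulfed material. Non-efferocytic BM macrophages were sorted as F4/80+ cells. The paper calls them non-engulfing in its results and BM macrophages alone in its discussion. Whether they had met apoptotic cells is therefore not settled here. Each of 2 experiments gave 1 single-cell RNA-sequencing library per group, so that each group holds 2 libraries, and all 4 come from cultures grown without other treatment. The methods give a general minimum of 3 independent mice per group for work with BM macrophages, and the sources used here do not say how many stand behind each library.

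Both families of lipid start from arachidonic acid, which phospholipases release from membranes. The cyclooxygenases, encoded by Ptgs1 and Ptgs2, turn it into prostaglandin H2, from which terminal synthases make prostaglandin E2 (Ptges), prostaglandin D2 (Hpgds) and thromboxane A2 (Tbxas1), and Hpgd encodes the dehydrogenase that inactivates prostaglandins. In the other branch 5-lipoxygenase (Alox5) and its activating protein (Alox5ap) make leukotriene A4, which Lta4h converts into leukotriene B4, an attractant of neutrophils, and Ltc4s converts into the cysteinyl leukotriene C4. Macrophages are a known source of both families, and prostaglandin E2 made during the clearance of dying cells is known to dampen inflammation.

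In efferocytic BM macrophages the UMIs of Hpgd, Ptgs1 and Ptgs2 took a smaller share of the RNA counted in both experiments, and those of Hpgds a larger one. A UMI (unique molecular identifier) marks 1 captured mRNA molecule, and CPM scales a gene's UMI count to 1000000 UMIs counted in the kept cells of the same library. All 10 genes had enough counts to be tested, and 6 passed an adjusted p of 0.05 in edgeR's quasi-likelihood test of the summed counts with the experiment as a block. Of these, Hpgds and Lta4h were higher in efferocytic BM macrophages, and Hpgd, Ptgs2, Ptgs1 and Ltc4s were lower. Among all 13869 genes tested 38.9% passed, 19.9% higher and 19.0% lower. The median log2 fold change was -0.29 over the 10 genes and -0.02 over all genes tested. The libraries of the groups did not overlap in CPM for 8 of the 10 genes, all but Alox5 and Lta4h, while 66.9% of all genes tested did not overlap either. Without the efferocytic library of Experiment 1 or of Experiment 2, and then without the block, 5 and 4 of the 10 genes passed, beside 2933 of 14384 and 1204 of 14199 genes tested. Without either non-efferocytic library 0 passed, among 2 and 0 of all genes, while 2999 and 3494 genes had an unadjusted p under 0.05. In each of these fits the 6 genes kept their direction.

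**Figure D1:**
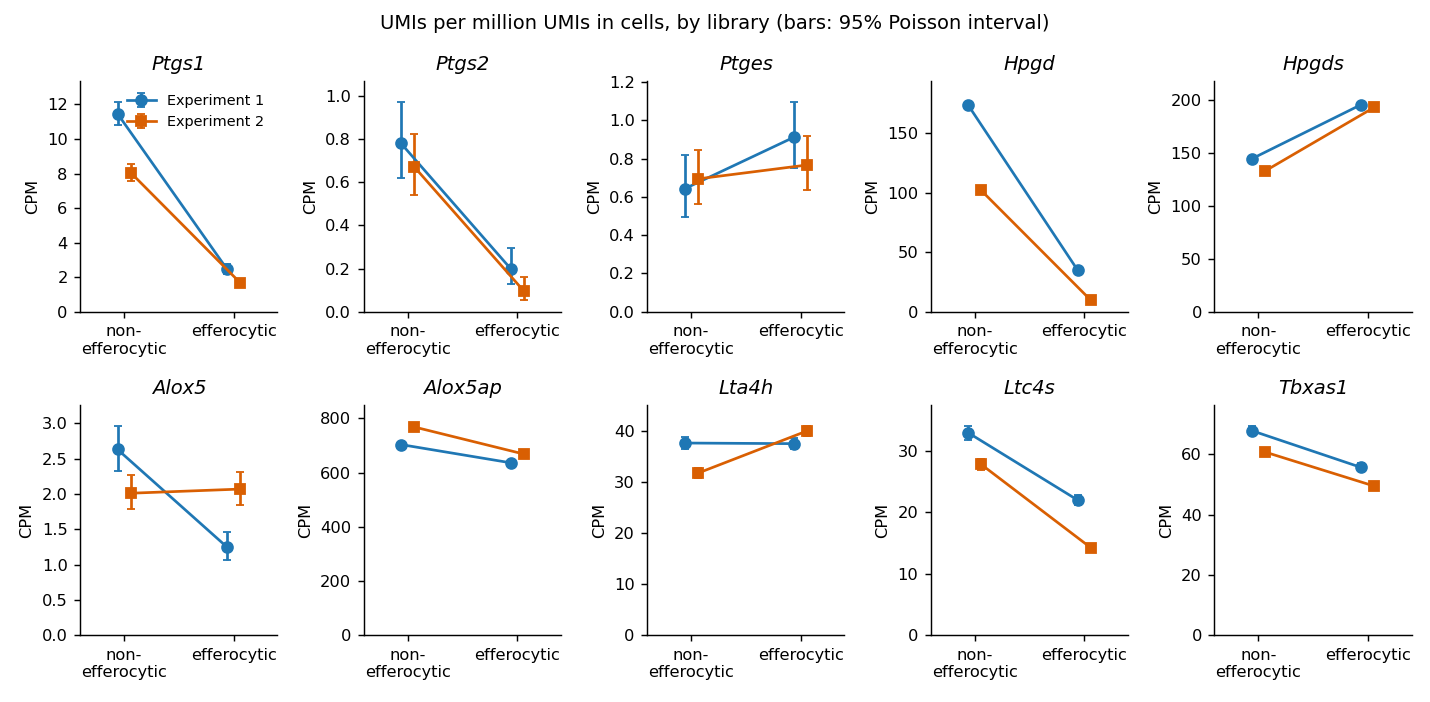
CPM (UMIs per 1000000 UMIs of a library's kept cells, y axis, linear and from 0) of each of the 10 genes in the non-efferocytic and efferocytic library of Experiment 1 (circles) and Experiment 2 (squares), with lines that join the libraries of an experiment and bars for the 95% Poisson interval of the count. Hpgd fell from 173 to 34.9 CPM in Experiment 1 and from 102 to 9.68 CPM in Experiment 2, and the lines of Alox5 and Lta4h differ between the experiments.

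The cells kept numbered 8280 non-efferocytic and 6695 efferocytic in Experiment 1, and 13411 and 8408 in Experiment 2, with 101216659 to 155224183 UMIs per library. A median non-efferocytic cell held 11146 and 9600 UMIs and a median efferocytic cell 17171 and 17475.5. CPM and the test therefore compare shares of a cell's RNA and not amounts per cell. Scaled to UMIs per cell instead, the median over all tested genes shifted to a log2 fold change of 0.60, with 6921 genes higher and 586 lower, against 2761 and 2636 in the main comparison. With library totals it moved to -0.12, with 1847 genes higher and 3700 lower. The experiments also differed in sex-linked genes. Xist, which is transcribed in female cells, stood at 457 and 393 CPM in Experiment 1 and at 0.846 and 0.580 CPM in Experiment 2, while the Y-linked genes Ddx3y, Eif2s3y, Kdm5d and Uty had no UMI in Experiment 1 and 9.84 to 49.0 CPM in Experiment 2. The methods name male mice of 4 to 6 weeks of age. Both libraries of an experiment were alike in these genes, so that this difference falls together with the experiment and not with the group. The libraries of Experiment 2 shared 118 cell barcodes, where 16.6 are expected by chance, and the other pairs shared 14 to 23. The F4/80+ label was checked against 11 macrophage markers, which together made up 9861 and 8484 CPM in the non-efferocytic and 7536 and 6748 CPM in the efferocytic libraries, with 7 lower and 1 higher in efferocytic BM macrophages with TMM scaling. With the same scaling all 6 monocyte markers were lower as well, with sums of 226 and 248 CPM against 79.7 and 62.4 CPM. The part of these shifts in the results for the enzymes was not tested.

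Promoter sequence is shown for the 6 genes that passed the test, since 4 of them fell together and the others rose. RefSeq lists a start on GRCm38.p6 for 9 of the 10 genes, and the 250 bases before it are printed 5′ to 3′ on the strand of the gene. Capitals mark the letters of 5 motifs searched on both strands. The core of the hypoxia response element was searched as ACGTG or as the alternative core GCGTG, and an E-box of the kind bound by Myc also holds the former. The letters AGGTCA stand for a binding element of nuclear receptors. The letters GAGGAA are the core of the site of PU.1, a transcription factor of myeloid cells. The letters TGAGTCA are an AP-1 site, and a TATA box was searched as TATAAA.
Ptgs1, chr2:36230176-36230425, plus strand: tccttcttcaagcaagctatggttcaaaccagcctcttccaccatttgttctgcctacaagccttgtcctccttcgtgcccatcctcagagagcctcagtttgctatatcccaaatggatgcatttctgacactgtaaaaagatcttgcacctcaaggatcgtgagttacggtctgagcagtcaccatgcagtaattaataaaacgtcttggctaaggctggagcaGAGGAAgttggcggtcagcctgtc
Ptgs2, chr1:150099781-150100030, plus strand: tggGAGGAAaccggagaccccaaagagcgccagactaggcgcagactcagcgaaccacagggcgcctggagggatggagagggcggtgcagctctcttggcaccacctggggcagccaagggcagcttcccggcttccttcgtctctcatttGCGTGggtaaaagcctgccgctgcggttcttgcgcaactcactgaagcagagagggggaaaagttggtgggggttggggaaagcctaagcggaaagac
Hpgd, chr8:56294302-56294551, plus strand: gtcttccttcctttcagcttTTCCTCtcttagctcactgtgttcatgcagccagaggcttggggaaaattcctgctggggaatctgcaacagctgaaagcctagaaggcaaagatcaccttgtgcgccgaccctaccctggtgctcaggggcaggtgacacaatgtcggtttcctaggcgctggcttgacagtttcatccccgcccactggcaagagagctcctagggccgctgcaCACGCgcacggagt
Ltc4s, chr11:50238533-50238782, minus strand: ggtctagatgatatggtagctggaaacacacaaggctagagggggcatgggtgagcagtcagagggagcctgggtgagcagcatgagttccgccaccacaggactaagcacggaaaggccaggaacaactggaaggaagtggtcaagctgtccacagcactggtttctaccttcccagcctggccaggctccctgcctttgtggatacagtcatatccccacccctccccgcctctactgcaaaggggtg
Hpgds, chr6:65144731-65144980, minus strand: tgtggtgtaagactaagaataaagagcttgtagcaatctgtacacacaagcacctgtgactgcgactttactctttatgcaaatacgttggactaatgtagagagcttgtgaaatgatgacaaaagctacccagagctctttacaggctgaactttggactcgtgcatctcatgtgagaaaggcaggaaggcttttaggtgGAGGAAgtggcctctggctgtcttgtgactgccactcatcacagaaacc
Lta4h, chr10:93453146-93453395, plus strand: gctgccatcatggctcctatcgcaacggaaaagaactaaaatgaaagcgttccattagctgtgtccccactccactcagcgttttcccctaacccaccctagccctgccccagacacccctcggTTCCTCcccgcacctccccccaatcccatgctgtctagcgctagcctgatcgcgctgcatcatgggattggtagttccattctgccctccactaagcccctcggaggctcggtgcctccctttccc
The PU.1 letters GAGGAA, which read TTCCTC where the match lies on the opposite strand, occurred before 8 of the 9 starts, all but that of Ltc4s, and in 23.4% of the 32536 promoter windows of this length. In Ptgs1 they lie 24 bases before the RefSeq start and in Hpgds 49 bases before it. The windows of Hpgds, Ltc4s, Ptges and Tbxas1 overlap the gene positions given below, which follow GENCODE. The match of Hpgds lies inside the gene by those positions. The hypoxia response letters occurred in 3 of the 9 windows, those of Ptgs2, Ptges and Hpgd, and in 38.8% of all windows. TATAAA was found in Tbxas1 alone, where its matches on both strands overlap, and in 12.3% of all windows. AGGTCA and TGAGTCA were in none of the 9 windows and in 14.0% and 4.45% of all windows. The 4 genes that fell thus shared none of these motifs as a group, and Hpgds and Lta4h shared GAGGAA with 6 of the other windows. A match describes letters in a window and shows no binding.

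Ptgs1 encodes cyclooxygenase-1, the constitutive form, and lies on the GRCm38 build, which all positions use, at chr2:36230426-36252272 (ENSMUSG00000047250). Its level was 11.5 CPM in non-efferocytic and 2.46 CPM in efferocytic BM macrophages of Experiment 1, and 8.05 and 1.68 CPM in Experiment 2. Both efferocytic libraries lay below both non-efferocytic ones, 4.65-fold lower in Experiment 1 and 4.81-fold lower in Experiment 2. The log2 fold change was -2.13 (SE 0.118, adjusted p = 4.02e-05, edgeR), and 1.39% of all genes tested fell as far or farther. A Ptgs1 UMI was found in 11.4% of non-efferocytic and 3.91% of efferocytic cells of Experiment 1, and in 7.05% and 2.69% of those of Experiment 2. At an equal depth of 5000 UMIs, reached by thinning each cell and leaving out shallower ones, these shares were 5.83%, 1.32%, 3.93% and 0.834%. No cell held more than 8 Ptgs1 UMIs. Free RNA, taken from barcodes with fewer than 100 UMIs, held Ptgs1 at 6.40 to 10.4 CPM, which was 0.903 to 4.08 times the level in cells.

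Neutrophil markers moved with Ptgs1. The 13 genes of the neutrophil list summed to 3226 and 3538 CPM in the non-efferocytic libraries and to 1024 and 763 CPM in the efferocytic ones, and 12 of the 13 fell, all but Mmp8. Cluster 9 of each experiment, which is neutrophil-like by 8 markers among its 10 leading genes, held 10.9% to 14.0% of the Ptgs1 UMIs of each library in 0.274% to 0.906% of its cells. In the clusters with macrophage markers alone, which leave those cells out, Ptgs1 was at 10.4 and 2.10 CPM in Experiment 1 and at 7.10 and 1.47 CPM in Experiment 2. Its log2 fold change there was -2.23 (SE 0.117, adjusted p = 0.000206, edgeR), as large as in all cells. Neutrophil markers still moved there, with 8 of 12 tested lower, 1 higher and a median log2 fold change of -2.40, against -1.80 in all cells, and their part in the result was not tested.

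Ptgs2 encodes cyclooxygenase-2, the inducible form, and lies at chr1:150100031-150108227 (ENSMUSG00000032487). It was counted rarely, with 79 and 25 UMIs in the non-efferocytic and efferocytic library of Experiment 1 and 93 and 15 UMIs in Experiment 2. The levels were 0.781, 0.200, 0.672 and 0.0966 CPM, and both efferocytic libraries lay below both non-efferocytic ones. The log2 fold change was -2.23 (SE 0.317, adjusted p = 0.00149, edgeR). With 10% free RNA removed from each library the gene had too few counts to be tested. In both efferocytic libraries and the non-efferocytic library of Experiment 2 that subtraction takes out more Ptgs2 than was counted. It therefore cannot show whether the call holds. The size changed when 1 library was left out, in fits that carry no block and so drop the pairing within an experiment. The log2 fold change was -2.82 without the efferocytic cells of Experiment 1 and -1.70 without those of Experiment 2. Without the non-efferocytic cells of Experiment 1 or 2 it was -2.07 and -2.28. Of the 93 UMIs, 57 came from 1 cell of cluster 8 of Experiment 2, a cluster led by Saa3, Ccl5 and Cxcl10. Without the cell with the most Ptgs2 UMIs in each library the levels were 0.721, 0.176, 0.260 and 0.0644 CPM, 4.10-fold and 4.04-fold lower in efferocytic BM macrophages, and the log2 fold change was -1.90 (SE 0.326, adjusted p = 0.00348). Cells with a Ptgs2 UMI were 0.700%, 0.284%, 0.186% and 0.119% of the cells, and 0.330%, 0.107%, 0.0831% and 0.0344% at equal depth.

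The level of Ptgs2 in cells was low against free RNA, where it stood at 2.85 and 3.84 CPM in Experiment 1 and at 11.8 and 11.9 CPM in Experiment 2, or 3.65 to 123 times the level in cells. No cells of these libraries gave a usable background share. Cluster 11 of Experiment 2, led by the T cell genes Trbc2, Ms4a4b and Cd3d, had a Ptgs2 UMI in 0 of 134 cells, which allows a share of up to 2.24%, at a median of 1466.5 UMIs per cell. Xist was among its 10 leading genes, against the low Xist of Experiment 2, and it held Alox5ap at 22.4 CPM where free RNA of that experiment held 483 and 496 CPM. Its shares are therefore not read as background. The cell with 57 Ptgs2 UMIs held 27488 UMIs in all. Ptges stood at 16.2 CPM in the stroma-like cluster 10 of both experiments, against 1.28 to 2.10 CPM in free RNA. In the neutrophil-like cluster 9 Ptges was at 4.43 and 3.88 CPM, from 8 and 10 UMIs. Ptgs2 reached 6 UMIs in a non-efferocytic cell of Experiment 1 with 7108 UMIs in all. A second non-efferocytic cell of Experiment 2 also held 6. Apart from such cells and these clusters, it was not detectable whether the rare UMIs of Ptgs2 and Ptges lie in cells that express them. Immediate-early genes, which like Ptgs2 respond within minutes to stress and handling, summed to 1615 and 758 CPM in the non-efferocytic libraries and to 685 and 483 CPM in the efferocytic ones, where 10 of 13 were lower and 0 higher, or 8 lower and 1 higher with UMIs per cell, and 3 lower with no replicate block. Their part in the result was not tested.

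Hpgd encodes 15-hydroxyprostaglandin dehydrogenase, which oxidizes prostaglandin E2 and related lipids to inactive forms, and lies at chr8:56294585-56321043 (ENSMUSG00000031613). Its level was 173 CPM in non-efferocytic and 34.9 CPM in efferocytic BM macrophages of Experiment 1, and 102 and 9.68 CPM in Experiment 2. The fall was 4.97-fold in Experiment 1 and 10.5-fold in Experiment 2, and no efferocytic library reached a non-efferocytic one. The size rested on single libraries, since the fit gave -1.83 (adjusted p = 0.0410) without that of efferocytic cells in Experiment 2 and -3.75 (adjusted p = 0.00946) without that in Experiment 1. Without the non-efferocytic library of Experiment 1 or 2 it gave -2.06 (adjusted p = 0.195) and -2.82 (adjusted p = 0.126). The log2 fold change of -2.73 (SE 0.235, adjusted p = 0.000173, edgeR) was exceeded in its direction by few genes, with 0.476% of all genes tested at or below it. The intervals of the log2 ratios, which cover counting error only, ran from -2.36 to -2.27 in Experiment 1 and from -3.47 to -3.32 in Experiment 2. Whether the experiments differ could not be tested with 1 library per group in each. Without the block the adjusted p of Hpgd was 0.0590. Counted per 100 cells, Hpgd fell from 212 to 65.2 UMIs in Experiment 1 and from 105 to 17.9 UMIs in Experiment 2.

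A UMI of Hpgd was found in 54.5% of the non-efferocytic and 25.03% of the efferocytic cells of Experiment 1, and in 37.3% and 9.81% of those of Experiment 2. At equal depth the shares were 42.5%, 12.8%, 30.6% and 4.34%, and both efferocytic values lay below both non-efferocytic ones. Cells with at least 10 Hpgd UMIs fell from 4.50% to 0.687% in Experiment 1 and from 1.15% to 0.0476% in Experiment 2. In free RNA the levels were 95.6, 32.5, 64.1 and 11.4 CPM, in the order of the libraries above, and followed those of the cells. The gene overlaps Gm45540 on the same strand, and how reads of the overlap were assigned is not given in the sources used here.

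**Figure D2:**
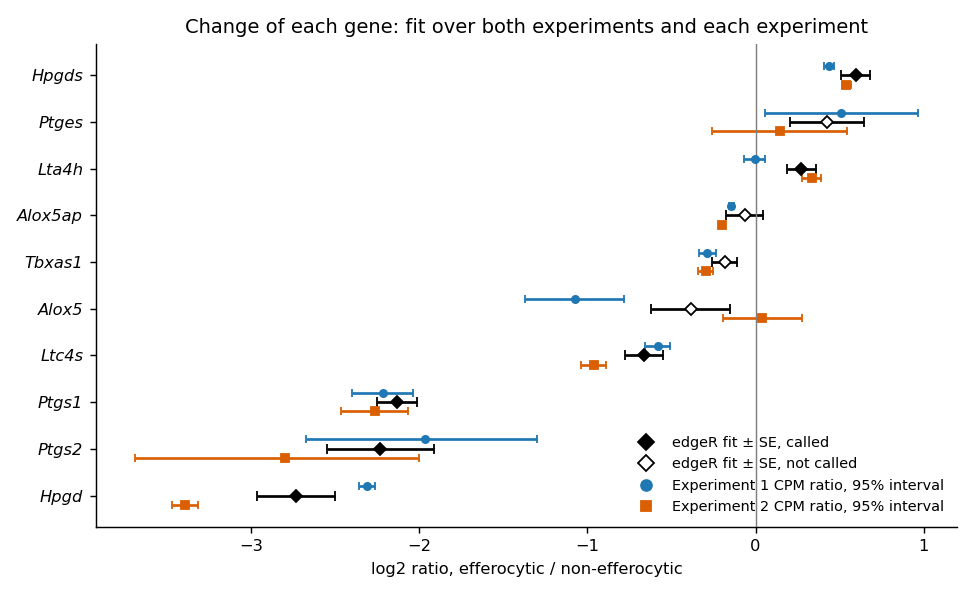
Log2 ratio of efferocytic to non-efferocytic BM macrophages (x axis) for each of the 10 genes, as the edgeR fit over both experiments with its SE (diamonds, filled where called) and as the CPM ratio of each experiment with its 95% counting interval (circles and squares). Hpgd, Ptgs2 and Ptgs1 lie beyond -2 in the fit, and Alox5 has ratios of -1.07 and 0.04 in the 2 experiments.

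Of the terminal prostaglandin synthases, Hpgds rose, while Ptges and Tbxas1 did not pass the test. Hpgds encodes the hematopoietic prostaglandin D synthase and lies at chr6:65117293-65144908 (ENSMUSG00000029919). It stood at 144 and 195 CPM in Experiment 1 and at 133 and 193 CPM in Experiment 2, so that both efferocytic libraries lay above both non-efferocytic ones. The log2 fold change was 0.60 (SE 0.0869, adjusted p = 0.00164, edgeR). The CPM ratios were 1.36-fold and 1.45-fold, smaller than the fitted 1.51-fold, since TMM scaling raises ratios above those of library totals, which gave a log2 fold change of 0.49. At equal depth 50.5% and 60.5% of the cells of Experiment 1 and 47.1% and 60.7% of those of Experiment 2 held a UMI, and 72.4%, 86.7%, 62.3% and 88.9% without thinning. Cells with at least 10 UMIs rose from 0.242% to 5.05% in Experiment 1 and from 0.142% to 3.46% in Experiment 2, without thinning. The planned set of macrophage-like clusters leaves out the main efferocytic clusters and also cluster 1 of Experiment 2, with 4317 non-efferocytic cells. It keeps 27.7% to 89.6% of the cells, and the log2 fold change of Hpgds there was 0.18 (adjusted p = 0.0923). In the wider set of clusters with macrophage markers it was 0.55 (adjusted p = 0.00435). Hpgds is also used by mast cells, whose markers were nearly absent. In the list of 14 genes for mast cells, basophils and eosinophils, Fcer1a, Tpsb2, Cma1 and Mcpt4 had no UMI in any library, and the sums were 0.721, 0.424, 8.34 and 0.399 CPM, with 7.47 CPM of the third from Prg2.

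Ptges, the inducible prostaglandin E synthase at chr2:30889471-30929863 (ENSMUSG00000050737), had 65, 114, 96 and 119 UMIs, or 0.642, 0.912, 0.694 and 0.767 CPM. The efferocytic libraries lay above the non-efferocytic ones, but the intervals of Experiment 2 overlapped, and the log2 fold change of 0.42 (SE 0.220) had an adjusted p of 0.161. Scaled to UMIs per cell it was 1.05 (adjusted p = 0.00393), where the median of all genes was 0.60. Ptges UMIs gathered in the stroma-like cluster 10, where 7 of the 10 leading genes are on the stroma list. The same 7 genes are also on the list of markers expected in RM1 cells. These lists therefore cannot tell stroma and RM1 cells apart there. No gene found on the RM1 list alone was among the 10 leading genes. That cluster held 26.2%, 12.3%, 20.8% and 15.1% of the Ptges UMIs of the libraries in 30, 13, 94 and 42 cells. The stroma list of 12 genes summed to 293, 78.4, 267 and 94.8 CPM, with 8 lower and 0 higher. In the clusters with macrophage markers alone Ptges was at 0.420, 0.802, 0.480 and 0.646 CPM, with a log2 fold change of 0.73 (SE 0.251, adjusted p = 0.0587).

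Tbxas1, thromboxane A synthase, at chr6:38875404-39084585 (ENSMUSG00000029925), stood at 67.9, 55.6, 60.8 and 49.5 CPM. Both efferocytic libraries were lower, 1.22-fold in Experiment 1 and 1.23-fold in Experiment 2, and the log2 fold change of -0.18 (SE 0.0763) had an adjusted p of 0.0893. This gene depended on the scaling and on the cells, with -0.29 (adjusted p = 0.0178) for library totals and 0.43 (adjusted p = 0.124) for UMIs per cell. In the planned macrophage-like clusters it was -0.45 (adjusted p = 0.00401), and in the wider set of clusters with macrophage markers -0.24 (adjusted p = 0.0461).

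In the leukotriene branch Ltc4s fell, Lta4h rose slightly, and Alox5 and Alox5ap did not pass the test. Alox5, at chr6:116410077-116461178 (ENSMUSG00000025701), was counted at 2.63 and 1.25 CPM in Experiment 1 and at 2.01 and 2.07 CPM in Experiment 2. In CPM it was lower in the efferocytic library of Experiment 1. The libraries of Experiment 2 did not differ beyond counting error, and the interval of their log2 ratio ran from -0.19 to 0.28. Per cell Alox5 was 1.38-fold lower in Experiment 1 and 1.84-fold higher in Experiment 2. The log2 fold change was -0.39 (SE 0.237, adjusted p = 0.228, edgeR). The neutrophil-like cluster held 23.7% and 24.8% of the Alox5 UMIs of the non-efferocytic libraries and 13.5% and 4.67% of those of the efferocytic ones. In the clusters with macrophage markers alone the levels were 2.03, 1.09, 1.57 and 1.97 CPM, with log2 ratios of -0.90 and 0.33.

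Alox5ap, whose product FLAP presents arachidonic acid to 5-lipoxygenase, lies at chr5:149264767-149288153 (ENSMUSG00000060063) and was counted at 703, 636, 768 and 668 CPM. It was found in 87.8% to 95.6% of the cells of a library. Both efferocytic libraries were lower, by log2 ratios of -0.14 and -0.20, and the fitted log2 fold change of -0.07 (SE 0.111, adjusted p = 0.665, edgeR) was smaller than its error. Scaled to UMIs per cell it was 0.55 (adjusted p = 0.000903), in the other direction and about as large as the median of all genes.

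Lta4h, leukotriene A4 hydrolase, at chr10:93453411-93484875 (ENSMUSG00000015889), stood at 37.7 and 37.6 CPM in Experiment 1 and at 31.8 and 40.1 CPM in Experiment 2. In plain CPM the rise lay in Experiment 2, with 1.26-fold. The CPM of the libraries of Experiment 1 did not differ beyond counting error, with a log2 ratio between -0.07 and 0.06. The fit uses TMM scaling, which raises ratios above those of library totals, where the log2 fold change was 0.17 (adjusted p = 0.218, edgeR). Per cell Lta4h was 1.52-fold higher in Experiment 1 and 2.26-fold higher in Experiment 2. The log2 fold change was 0.27 (SE 0.0870, adjusted p = 0.0393, edgeR), and 6 of 14 alternatives over all 4 libraries lost the call. So did each of the 4 fits that left out 1 library, which carry no block, with values from 0.16 to 0.40. The neutrophil-like cluster held 12.2% and 10.7% of the Lta4h UMIs of the non-efferocytic libraries and 2.47% and 2.09% of those of the efferocytic ones. In the clusters with macrophage markers alone Lta4h was at 33.6 and 36.8 CPM in Experiment 1 and at 28.8 and 39.5 CPM in Experiment 2. There the groups did not overlap, and the log2 fold change was 0.36 (SE 0.0840, adjusted p = 0.0164).

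Ltc4s, leukotriene C4 synthase, is a short gene at chr11:50236461-50238616 (ENSMUSG00000020377). It fell from 32.9 to 22.0 CPM in Experiment 1 and from 27.8 to 14.3 CPM in Experiment 2, which is 1.498-fold and 1.95-fold. Both efferocytic libraries lay below both non-efferocytic ones, and the log2 fold change was -0.67 (SE 0.113, adjusted p = 0.00309, edgeR). The share of cells with a UMI was 28.2% and 28.2% in Experiment 1 and 21.3% and 20.1% in Experiment 2, and at equal depth 15.4%, 9.98%, 13.2% and 6.80%. Per cell the fall was not seen, with 40.3 and 41.1 UMIs in 100 cells of Experiment 1 and 28.7 and 26.3 in those of Experiment 2, and scaled to UMIs per cell the log2 fold change was -0.05 (adjusted p = 0.886). Without the block the adjusted p was 0.128. With Experiment 2's efferocytic library left out and no block, the value was -0.31 (adjusted p = 0.191).

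The 10 genes differed in where their UMIs lay. The cells of each experiment were clustered without these genes into 12 clusters, of which 9 and 12 held at least 100 cells. Since most clusters are mainly of 1 library, cluster and group cannot be told apart for many cells. Hpgd had its highest level in cluster 1 of Experiment 1 (274 CPM, 59.2% of its UMIs) and in cluster 0 of Experiment 2 (163 CPM, 42.5% of its UMIs), which are the main non-efferocytic clusters. Both are led by Hpgd itself, followed by Ier3 and Ighm in the one and by Ednrb and Selenop in the other. Outside them Hpgd was at 171 CPM in cluster 3 of Experiment 1, led by interferon-induced genes, and at 117 CPM in cluster 8 of Experiment 2. It was lowest among clusters of at least 100 cells with macrophage markers in cluster 8 of Experiment 1 (4.08 CPM), led by Arg1, and in cluster 3 of Experiment 2 (4.89 CPM), led by Cdkn1c.

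Ptgs1, Alox5 and Lta4h shared their highest level, in the neutrophil-like cluster 9 of both experiments. Ptgs1 stood there at 94.2 and 67.9 CPM, Alox5 at 46.5 and 32.6 CPM and Lta4h at 322 and 233 CPM. The share of these cells with a UMI was 68.7% and 64.6% for Ptgs1, 51.5% and 36.8% for Alox5 and 91.9% and 93.1% for Lta4h. Neutrophils and their precursors are known for 5-lipoxygenase and leukotriene B4. Outside cluster 9, among clusters of at least 100 cells, Ptgs1 was highest in cluster 1 of Experiment 1 (14.7 CPM) and, among clusters with macrophage markers, in cluster 0 of Experiment 2 (10.0 CPM). Alox5 was highest after cluster 9 in the cycling clusters 5 and 6 (3.62 and 4.63 CPM), which are led by Birc5 and Hist1h2ap.

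Ptges was highest in the stroma-like cluster 10, at 16.2 CPM in both experiments, and Ltc4s reached 59.0 and 47.8 CPM there against 43.9 CPM in cluster 1 of Experiment 1 and 42.3 CPM in cluster 0 of Experiment 2. Hpgds was spread over the clusters with macrophage markers, from 124 to 214 CPM in Experiment 1 and from 115 to 232 CPM in Experiment 2. The highest of these levels were in cluster 0 of Experiment 1 and cluster 2 of Experiment 2, the main efferocytic clusters. Higher levels stood in clusters of few UMIs with Malat1 among their leading genes, with 779 CPM from 30 UMIs in cluster 11 of Experiment 1 and 544 CPM in cluster 5 of Experiment 2. Alox5ap was lowest among clusters with macrophage markers in the clusters with Cdkn1c and Npy, with 211 CPM in cluster 7 of Experiment 1 and, with the Prss46 cluster, 538 and 533 CPM in clusters 3 and 7 of Experiment 2. Among clusters with macrophage markers Tbxas1 was lowest in the same ones, at 22.4 CPM in Experiment 1 and 38.0 and 38.6 CPM in Experiment 2.

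**Figure D3:**
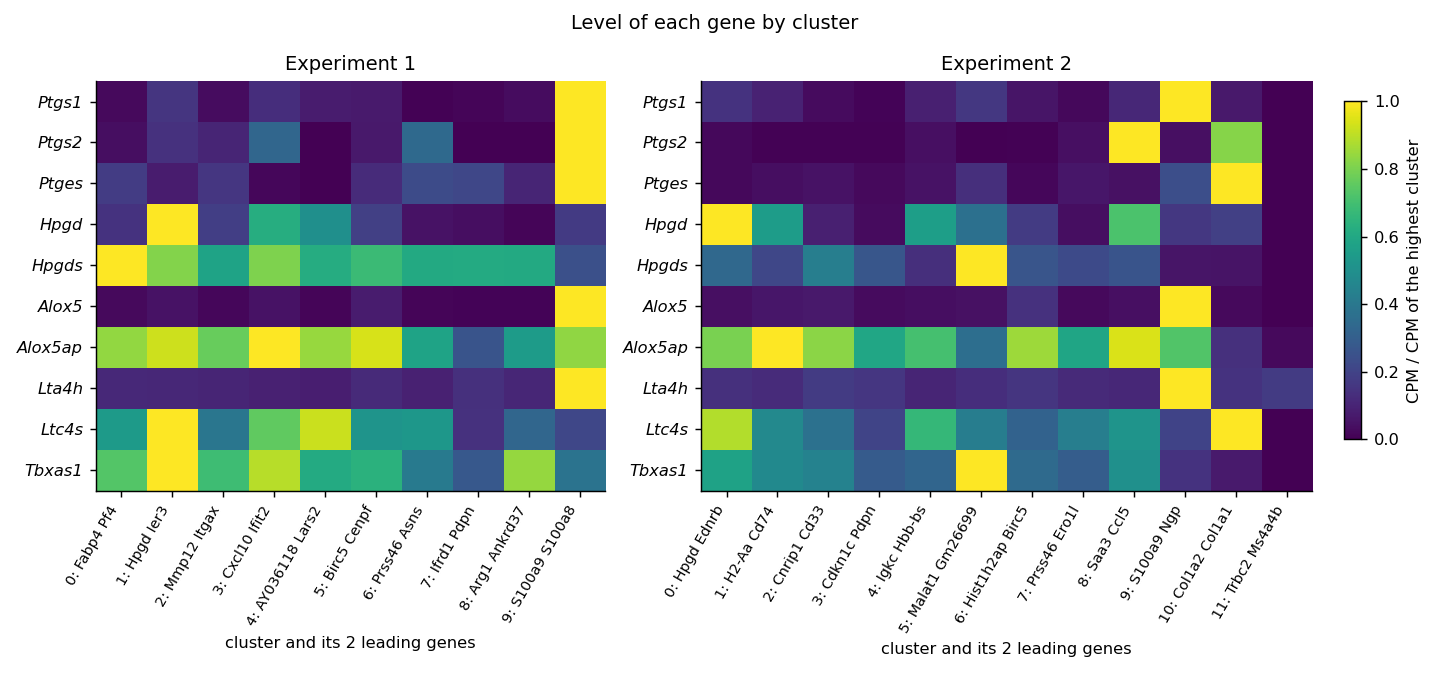
Level of each of the 10 genes (rows) in each cluster of at least 90 cells (columns, named by number and leading genes) of Experiment 1 and Experiment 2, as CPM divided by the CPM of the highest cluster drawn for that experiment. Ptgs1, Alox5 and Lta4h peak in the S100a9 cluster of both experiments, and Hpgd in cluster 1 of Experiment 1 and cluster 0 of Experiment 2.

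Within clusters the changes of Hpgd, Ptgs1, Ltc4s and Hpgds had the direction seen over all cells. The 14 clusters with at least 100 cells of both libraries, 8 in Experiment 1 and 6 in Experiment 2, allow the libraries to be set side by side within a cluster, with 1 library per group and no test. They include cluster 4 of each experiment, which is not among the clusters with macrophage markers. Its median UMI count was 0.111 and 0.119 of the library median. Hpgd was lower in the efferocytic cells of 14 of the 14, with a median log2 ratio of -2.11. In the MHC class II cluster 2 of Experiment 1 it fell from 68.4 to 15.1 CPM, and in the cycling cluster 6 of Experiment 2 from 60.8 to 12.7 CPM. Its smallest differences were in cluster 1 of Experiment 2 (91.1 and 71.6 CPM) and in cluster 1 of Experiment 1 (279 and 202 CPM). In the smaller neutrophil-like cluster 9 Hpgd was at 60.6 and 10.3 CPM in Experiment 1 and at 32.6 and 0 CPM in Experiment 2. The stroma-like cluster 10 held it at 65.0 and 22.0 CPM and at 43.6 and 12.4 CPM. Hpgd fell in free RNA too, and the part of free RNA in these ratios was not tested. Ptgs1 was lower in 13 of 14, with a median log2 ratio of -1.60 over the clusters with UMIs in both libraries. The exception was cluster 6 of Experiment 1, at 0.401 and 0.547 CPM from 1 and 4 UMIs, and cluster 1 of Experiment 2 was nearly level, at 6.59 and 6.51 CPM.

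Hpgds was higher in 14 of 14, with log2 ratios from 0.13 to 0.84 and a median of 0.59. Ltc4s was lower in 12 of 14 (median -0.45), with cluster 6 of Experiment 1 at 20.5 and 24.1 CPM as the clearest exception, and Lta4h was higher in 11 of 14 (median 0.25). Tbxas1 was lower in 6 and higher in 8, with a median of 0.03, and Alox5ap was lower in 9 and higher in 5, with a median of -0.10. In cluster 3 of Experiment 2 both were higher in efferocytic cells, Alox5ap at 576 against 368 CPM and Tbxas1 at 40.8 against 25.4 CPM. Counts of Alox5, Ptgs2 and Ptges within most clusters were too few to compare.

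**Figure D4:**
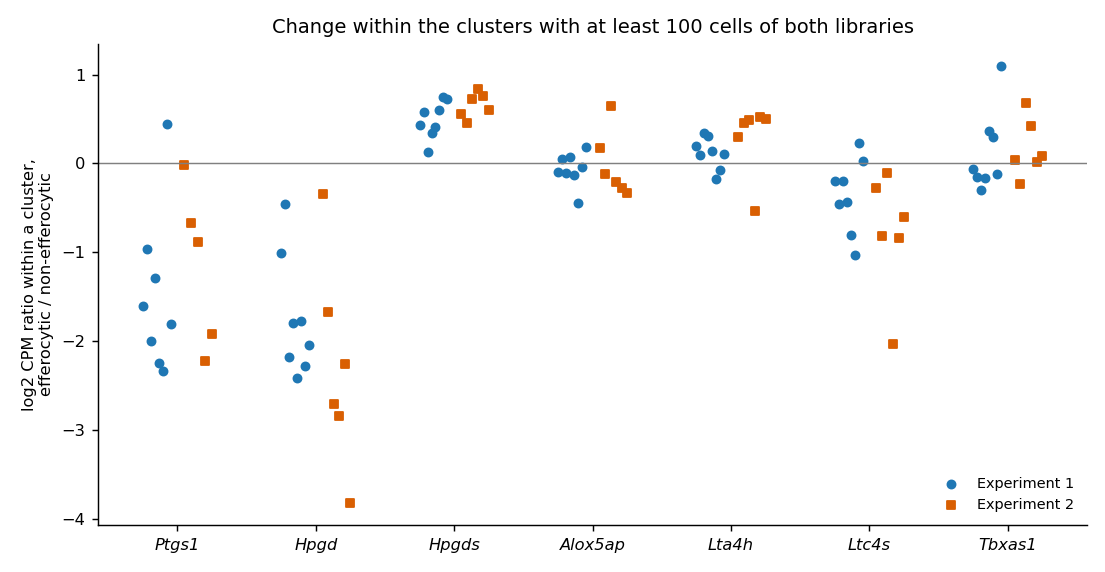
Log2 CPM ratio of efferocytic to non-efferocytic cells (y axis) within each of the 14 clusters with at least 100 cells of both libraries, for the 7 genes with at least 5 CPM in non-efferocytic BM macrophages (circles for Experiment 1, squares for Experiment 2). All Hpgds points lie above 0 and all Hpgd points below it, and those of Alox5ap and Tbxas1 lie on both sides. A cluster without UMIs in 1 library is not drawn, which concerns 1 point of Ptgs1.

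The genes most like each member over the clusters were taken as those with the highest smaller Pearson correlation of log2(CPM + 1) in the 2 experiments, among 8622 genes. The points share libraries and depth, and no test was made. For Hpgd they were Bmf (0.97 in both), Sult1a1 (0.98 and 0.94) and Aif1 (0.96 and 0.91), and for Ptgs1 Pilrb2 (0.88 and 0.91), Rogdi (0.86 and 0.84) and Fmo5 (0.89 and 0.83). Hpgds was most like 4931406C07Rik (0.86 and 0.96), Man1c1 (0.84 and 0.90) and Scarb2 (0.79 and 0.93). Alox5ap followed Sh2d1b1 (0.95 and 0.94), Fcer1g (0.93 and 0.98) and Ebi3 (0.92 and 0.94), and Tbxas1 followed Man2b1 (0.96 in both), Vps13d (0.95 and 0.94) and Adgre1 (0.94 and 0.98), the gene of F4/80. For Ltc4s the genes were Wtip (0.92 and 0.94), Cercam (0.93 and 0.91) and Ccdc73 (0.90 and 0.94), and for Lta4h Apmap (0.81 and 0.80) and Slc35c1 (0.89 and 0.79). Among the members, Alox5ap and Tbxas1 were alike (0.81 and 0.88), as were Hpgd and Ltc4s (0.80 and 0.81). Hpgds and Tbxas1 were at 0.49 in Experiment 1 and 0.98 in Experiment 2.

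Genes around these enzymes were counted from 6 lists, which hold 60 genes in 61 rows, 43 of them tested. Over all 13869 genes tested, 2761 were called higher and 2636 lower with TMM. These background counts changed with the setting, to 1847 and 3700 for library totals and to 6921 and 586 for UMIs per cell. Without the block they were 1285 and 1073, and in DESeq2 1971 and 1418. In the clusters with macrophage markers they were 2402 and 2320 of 13158. On the side of arachidonic acid supply 6 of the 11 phospholipase and arachidonate genes tested were higher and 0 lower, with a median log2 fold change of 0.46. Among all genes tested 19.9% were higher and 19.0% lower. Pla2g4a, the cytosolic phospholipase A2 that feeds both branches, rose from 7.42 to 9.13 CPM in Experiment 1 and from 6.90 to 15.3 CPM in Experiment 2 (log2 fold change 0.84, SE 0.168, adjusted p = 0.00616, edgeR). Lpcat3, which returns arachidonic acid to phospholipids, rose by 0.55, Pla2g2e, a secreted phospholipase, by 0.52 and Pla2g12a by 0.46. With library totals 5 of these genes were higher and 1, Mboat7, lower. Scaled to UMIs per cell 10 of the 11 rose and 0 fell, in a setting where 6921 of all 13869 genes rose. With no replicate block 2 passed, Lpcat3 and Pla2g12a, and with DESeq2 4 passed, Lpcat3, Pla2g12a, Pla2g4a and Pla2g7.

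Other prostaglandin enzymes and transporters gave 3 of 11 higher and 1 lower with TMM, 3 higher and 3 lower with library totals, and 8 higher and 0 lower with UMIs per cell. The count with TMM is near the share of all genes tested, of which 38.9% passed. With no replicate block 2 were higher, without Ptges3, and 1 lower. Ptgr1, a reductase that inactivates leukotriene B4 and prostaglandins, rose from 58.8 to 85.9 CPM in Experiment 1 and from 63.9 to 99.7 CPM in Experiment 2 (log2 fold change 0.70, SE 0.0780, adjusted p = 0.000515). Akr1b3, an aldose reductase, rose by 0.63 and Ptges3 by 0.39 on the log2 scale. Cbr3, a carbonyl reductase, fell from 91.1 to 52.4 CPM and from 101 to 49.3 CPM (log2 fold change -0.81, adjusted p = 0.000669). With UMIs per cell the fall of Cbr3 was -0.19 and did not pass (adjusted p = 0.499).

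Of 5 prostanoid receptors tested, 3 were lower and 0 higher with TMM, while with UMIs per cell 0 passed and the median of the list was 0.11. With no replicate block 0 passed as well, and with DESeq2 Ptger4 alone. Ptger4, a receptor of prostaglandin E2 that raises cyclic AMP, fell from 11.4 to 4.98 CPM in Experiment 1 and from 7.15 to 2.83 CPM in Experiment 2 (log2 fold change -1.16, SE 0.115, adjusted p = 0.000318). Ptgir, the prostacyclin receptor, fell from 6.13 to 4.62 CPM and from 5.95 to 4.08 CPM (log2 fold change -0.37, adjusted p = 0.0411). With UMIs per cell its value was 0.25, in the other direction, and did not pass (adjusted p = 0.433). Ptger1, the third gene called, was under 0.5 CPM in all libraries. Ptger2, the other prostaglandin E2 receptor that raises cyclic AMP, was at 18.3, 16.3, 24.6 and 15.1 CPM, with an adjusted p of 0.0870. Ptgdr and Ptgdr2, the receptors of prostaglandin D2, had no UMI in any library.

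Leukotriene metabolism and export held 5 lower genes and 1 higher among 7 tested. The lower genes numbered 2 with no replicate block, Cyp4f18 and Ggt5, and 3 each with UMIs per cell and in the clusters with macrophage markers. Ggt5, which trims leukotriene C4, fell from 8.54 to 2.05 CPM and from 5.56 to 1.28 CPM (log2 fold change -1.98, SE 0.128, adjusted p = 6.74e-05). Cyp4f18, an omega-oxidase of leukotriene B4, fell from 47.2 to 14.4 CPM and from 50.1 to 9.17 CPM (-1.97, SE 0.170). Mgst2, which can also make leukotriene C4, fell by 1.29 on the log2 scale, but in the clusters with macrophage markers the value was -0.53 (adjusted p = 0.144). Mgst3 rose by 0.73. Of the leukotriene receptors, Ltb4r1, for leukotriene B4, fell from 3.85 to 1.06 CPM and from 3.53 to 0.921 CPM (-1.80, adjusted p = 0.000160). In the clusters with macrophage markers, which hold no neutrophil-like cluster, it was -0.31 with an adjusted p of 0.474. Cysltr1, for cysteinyl leukotrienes, stood at 14.7, 12.4, 14.7 and 16.0 CPM, with an adjusted p of 0.708.

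Among the other lipoxygenases, epoxide hydrolases and receptors of pro-resolving lipids, 4 of 5 tested genes were lower. With no replicate block 3 were lower, without Fpr2, and with DESeq2 3, without Gpr18. Ephx1, the microsomal epoxide hydrolase, fell from 90.4 to 18.2 CPM and from 64.2 to 7.93 CPM (log2 fold change -2.55, SE 0.165, adjusted p = 6.78e-05). Cmklr1, a receptor of chemerin, fell from 44.7 to 21.7 CPM and from 33.1 to 17.1 CPM (-0.89, SE 0.0758), and with UMIs per cell by 0.27, which did not pass (adjusted p = 0.380). Fpr2 and Gpr18 were lower as well and under 1 CPM in all libraries, and in the clusters with macrophage markers Fpr2 did not pass (-1.27, adjusted p = 0.0773). Alox15, the 12/15-lipoxygenase of resident macrophages, had at most 0.016 CPM in any library, under the floor of 3 counts.

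**Figure D5:**
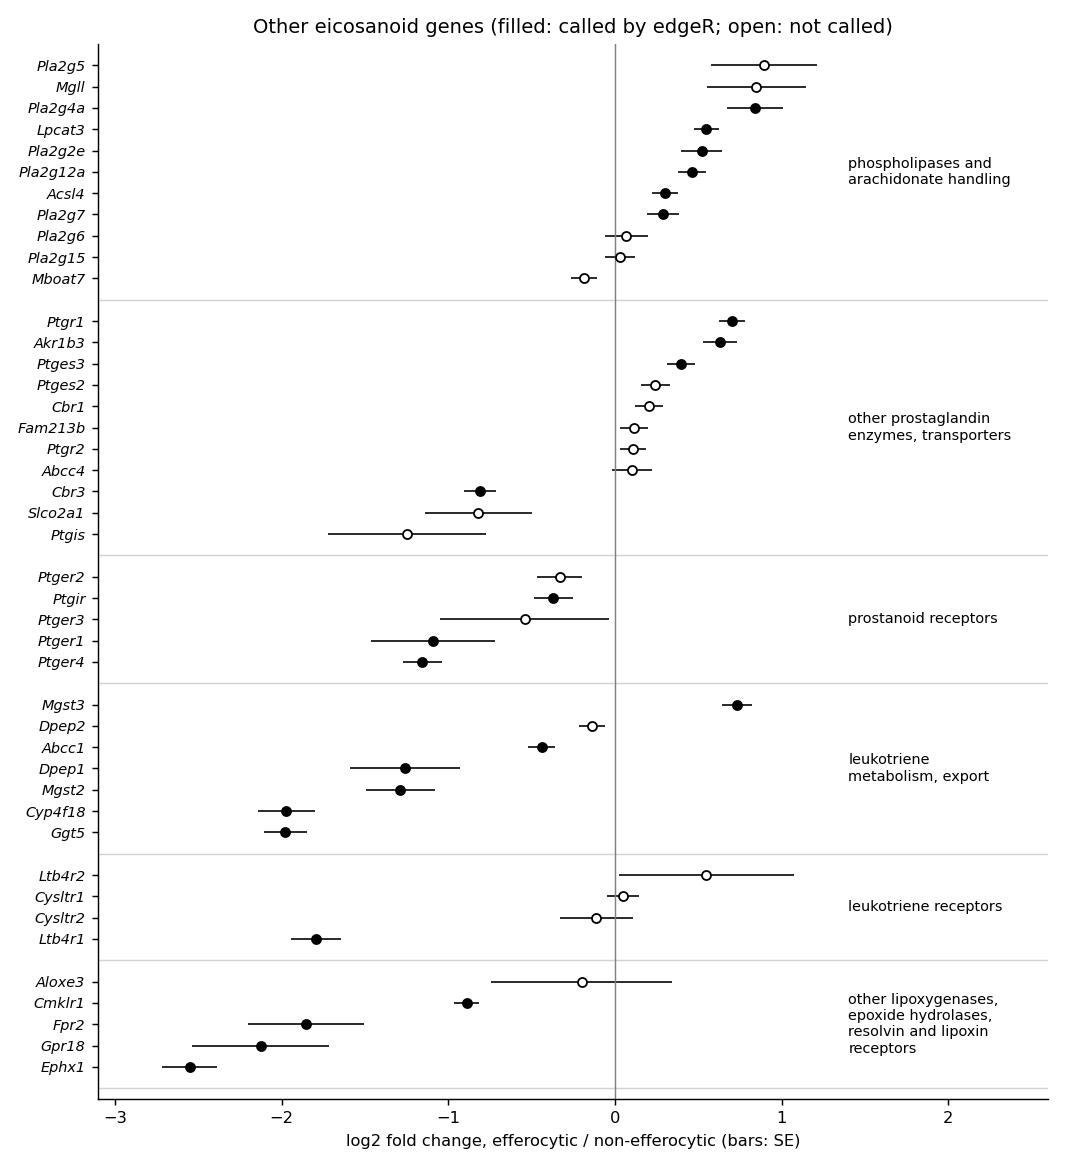
Log2 fold change of efferocytic against non-efferocytic BM macrophages (x axis, bars for the SE of the edgeR fit) for the 43 tested genes of 6 lists around the enzymes, filled where called. Phospholipase and arachidonate genes lie to the right of 0 where called, and the called prostanoid receptors, leukotriene B4 receptor and Ephx1 to the left.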

How the data were processed

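BM macrophages were sorted and single-cell libraries were made with 10X Genomics reagents. The authors aligned and counted reads with Cell Ranger, and the deposited matrices hold raw UMI counts per gene and barcode (version 3.0.0 per the file headers of Experiment 1 and 3.1.0 for Experiment 2, Seurat 3.1 per the labels for later steps). Barcodes with at least 200 genes, 1000 UMIs and at most 10% mitochondrial UMIs were kept, doublets included. Counts were summed per library and tested with edgeR 4.0.16 (R 4.3.3) by the quasi-likelihood test with TMM, filterByExpr and the experiment as a block, which leaves 1 residual degree of freedom among the 4 libraries, with Benjamini-Hochberg adjustment over all genes tested and a threshold of 0.05. Libraries of the same experiment deviated together (r = 0.666 over 8623 genes). Sex-linked genes differed between the experiments, which therefore used different mice. Whether the libraries of an experiment shared mice is not given in the sources used here. The p-values rest on the spread left among these libraries after the block, moderated with that of the other genes tested. They therefore do not measure the spread of a single gene alone. For Hpgd the SE was 0.235 in edgeR and 0.556 in DESeq2, and for Lta4h 0.0870 and 0.130. The test was checked on simulated data. Intervals are exact Poisson or binomial at 95% and cover counting error only, as does the floor of 3 counts, 0.0193 to 0.0296 CPM.

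Cells of each experiment were clustered with scanpy 1.11.5 and leidenalg 0.10.2 (resolution 0.5, 20 principal components, 5000 variable genes without the 10 members). The wider set of clusters with macrophage markers (at least 3 markers each in at least a share of 0.5 of the cells, a median UMI count of at least 0.333 of the library median, and at most 1 of 10 leading genes on the list of any other cell type) and the fit without the cell richest in Ptgs2 were added after seeing the data. All 10 members were described; of each list, up to 4 called genes of at least 1 CPM with the largest changes were named, and receptors of at least 1 CPM; likeness was computed for members of at least 5 CPM, with the 3 most like genes named, of which 1 is not reported here. Ptger1, Fpr2, Gpr18, Mboat7, Pla2g7, Alox15, Ptgdr and Ptgdr2 fall outside that rule and were named after their values were seen. The members and lists were chosen with earlier results of these data known. Alternatives changed the block, tool, scaling, filters, cell calling, doublets (scores against simulated pairs, at 0.8% per 1000 cells, since the automatic threshold marked 0 to 1 cells), free RNA and cell sets, with DESeq2 1.42.0 as another tool. Positions follow GENCODE on GRCm38.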

Additional observations from a re-analysis of the deposited data

How the results depend on the processing

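The number of genes called was 5397, and fell to 2358 with no replicate block, 2473 with 10% free RNA removed and 3389 with DESeq2. Leaving out 1 library gave 0 to 2933. The number of the 10 genes called was 6, and 3 with no replicate block, where Hpgd (-2.50, adjusted p = 0.0590), Lta4h (0.27, adjusted p = 0.123) and Ltc4s (-0.63, adjusted p = 0.128) missed the threshold. Leaving out 1 library gave 0 to 5. Those fits carry no block, since it would leave no residual degree of freedom. Over the alternatives with all 4 libraries Ptgs1 ranged from -2.78 to -1.52 (log2) and was called in 14 of 14, and Ptgs2 from -2.82 to -1.63 in 13 of the 13 that could test it. It was filtered out with 10% free RNA removed. Hpgd ranged from -3.50 in the macrophage-like clusters alone to -2.13 scaled to UMIs per cell, and was called in 13 of 14. Directions reversed scaled to UMIs per cell for Alox5 (0.23), Alox5ap (0.55) and Tbxas1 (0.43), and for Alox5ap without the non-efferocytic library of Experiment 2 (0.0048, in a range of -0.12 to 0.0048 when 1 library was left out). Differences in the share of cells with a UMI reversed when thinned for Alox5ap in Experiment 1 (0.289 to -2.33 percentage points) and Experiment 2 (-1.45) and Tbxas1 (-4.92 and -4.67), and for Tbxas1 in Experiment 1 in the macrophage-like clusters alone (-0.821), where Alox5ap in Experiment 1 was at -3.51. With cells of at least 5000 UMIs it was at -0.187. The causes were not tested. The counts of Ptgs2 (15 to 93 UMIs) and Ptges (65 to 119) limit what depth can show for them.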
